A study of Caenorhabditis elegans with 2 samples.

Results

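The rps- genes encode the protein subunits of the small subunit of the cytosolic ribosome. They were taken as the protein-coding nuclear genes of the Ensembl WBcel235 annotation whose symbol starts with rps-, which gave 31 of 19973 such genes. A gene was counted when the summit of a ChIP-seq peak lay in its promoter window, which reached 1000 bp upstream and 200 bp downstream from each annotated start of a transcript. The series mapped the C34B4.2 protein of Caenorhabditis elegans, carried with a C-terminal GFP-FLAG tag by strain OP552 (unc-119(tm4063) III; wgIs552), in whole L1 larvae of pooled sexes. The larvae had been starved after bleaching and were collected 6 h after that synchronization, and both biological replicates belong to this single group. The sample descriptions state an antibody against GFP, whereas the antibody label names C34B4.2. Per the labels the tagged line is an insertion that stably expresses the fusion, and no other line or untagged group was analysed here.

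The small ribosomal subunit binds messenger RNA, scans it for the start codon and checks the pairing of codon and transfer RNA at the decoding centre. Its proteins are needed in near-equal amounts, so their genes are a standard example of a set that is expressed together and strongly in growing animals. In C. elegans most ribosomal protein messages are trans-spliced: a short leader RNA replaces the original 5′ end at a splice acceptor, and the start that is annotated can then be that acceptor and lie downstream of the true start of transcription. Distances to annotated starts carry that limit throughout.

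Of the 31 rps- genes, 8 had a summit of the thresholded list in the promoter window (25.8%, 95% Wilson interval 13.7 to 43.2%), while 276 of all 19973 genes did (1.38%). The 8 were rps-1, rps-12, rps-18, rps-19, rps-20, rps-22, rps-26 and rps-28. The thresholded list holds the 267 peaks that the authors kept with a threshold on the irreproducible discovery rate. These are exactly the 267 strongest peaks of the pooled candidates. Candidates of both replicates were found for 272 of the 276 called genes, so a place in the list does not show that a peak recurred in each replicate. The candidate lists, from both replicates pooled and from each replicate, hold 30000 regions each and by design include background. Each region carries the authors' signal value, whose scale is not given in the sources used here, and read depth is unknown. Signal in the thresholded list ran from 112 to 868 with a median of 153, and in the pooled candidate list from 39.5 to 868 with a median of 49.6.

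All 8 calls lay at places where the summit also fell in the promoter window of another gene. The annotated start nearest to the summit was that of the rps- gene at 3 of 8 (rps-1, rps-22 and rps-28). Among all 276 called genes, 192 had their own start nearest (69.6%) and 164 shared the summit with another gene (59.4%). When each summit was given to the gene with the nearest start alone, 3 of 31 rps- genes were called, while 0.951% of all genes were.

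The summit sequences of rps-1 and rps-12 are shown because these are the strongest rps- peaks, and because they hold the same 9 bases, in capitals, on the coding strand of both genes. Each is 101 bases of the WBcel235 reference with the summit at its middle base, printed on the strand of the rps- gene. The rps-1 window is chrIII:4475602-4475702 and the rps-12 window is chrIII:5679086-5679186, both on the plus strand.
rps-1: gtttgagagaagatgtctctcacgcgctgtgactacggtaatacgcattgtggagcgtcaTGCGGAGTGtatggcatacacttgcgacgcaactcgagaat
rps-12: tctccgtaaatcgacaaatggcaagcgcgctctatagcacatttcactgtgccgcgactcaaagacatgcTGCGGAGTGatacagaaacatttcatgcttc
The shared bases stood 10 to 18 bp downstream of the summit at rps-1 and 20 to 28 bp downstream of it at rps-12. On either strand they occur at 185 places in the genome. Within 50 bp of a summit they were found at 3 of 267 thresholded summits and at 4 of 29733 weaker pooled summits (0.0135%). The 3 include the summits of rps-1 and rps-12, from which the run was taken, so those 2 matches were fixed in advance. The run was searched for after the peaks had been seen, and its match is a description of these windows. A run of 9 bases did not set this pair apart from other thresholded rps- genes. Within 50 bp of the summits, on either strand, rps-20 and rps-28 shared 11 bases, and rps-22 and rps-28 shared 10. Runs of 9 bases were also shared by rps-19 and rps-20, by rps-20 and rps-22, and by rps-26 and rps-28. The remaining pairs shared shorter runs.

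When 100 bp on each side of the summits were compared, rps-20 and rps-22 shared a longer run of 20 bases. It is shown at rps-22 and, in part, at rps-30. The rps-22 window is chrIII:1950386-1950486, plus strand, with the 20 shared bases in capitals. The rps-30 window is chrV:7776260-7776360, plus strand, with the 16 bases that match the run without a break in capitals.
rps-22: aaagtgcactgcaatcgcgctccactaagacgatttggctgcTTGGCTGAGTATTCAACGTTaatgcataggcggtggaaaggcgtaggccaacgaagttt
rps-30: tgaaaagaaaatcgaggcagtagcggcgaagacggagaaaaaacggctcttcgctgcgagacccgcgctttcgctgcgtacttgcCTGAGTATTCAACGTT
The run covered the summit itself at rps-22, from 8 bp upstream to 11 bp downstream. At rps-20, a gene on the minus strand, it lay within 100 bp of the summit on that strand, so it reads in the direction of the gene there too. The full 20 bases occur at 4 places in the genome, and 2 of the 267 thresholded summits have them within 100 bp, those of rps-20 and rps-22, against 0 of 29733 weaker pooled summits. A piece of at least 16 bases occurs at 18 places, near 5 of 267 thresholded summits (1.87%) and 4 of 29733 weaker ones (0.0135%). Allowing up to 3 mismatches, the run lay near 5 thresholded summits and 11 weaker ones (0.037%). With that allowance the rps- genes were rps-20 and rps-22 with 0 mismatches and rps-30 with 1, and the next closest, rps-24, had 5. This run too was chosen after the peaks had been seen, and it was taken from the windows of rps-20 and rps-22. Their 2 summits therefore match by construction in each of the thresholded counts above, so those counts cannot be read as enrichment.

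Short words that were frequent at C34B4.2 summits in earlier results of these data were looked up at the rps- genes on both strands. The 5 words are ACGCAG and its overlapping neighbour GACGCA, the word CGCGCA with its overlapping neighbour GCGCAC, and GCGTCA. On the other strand GCGTCA reads TGACGC, which also overlaps GACGCA, so the words are not independent of each other. Any of the words lay within 50 bp of the summit at 3 of 8 thresholded rps- genes, rps-1, rps-19 and rps-20, and at 5 of 18 rps- genes with a weaker pooled candidate. The share was 46.1% over all 267 thresholded summits and 8.41% over the 29733 weaker ones. For ACGCAG alone the counts were 2 of 8 (rps-19 and rps-20) and 4 of 18 (rps-10, rps-14, rps-24 and rps-30), against 18.0% of thresholded and 2.72% of weaker summits. The words were chosen as frequent at summits of these same data. The higher shares at thresholded summits were therefore built in and cannot be read as enrichment. With the summits of replicate 1 alone, 3 of the 26 rps- genes with a candidate had ACGCAG, and with those of replicate 2 alone 6 of 24 had it. The share over all summits of a single replicate was not counted. In the promoters themselves, from 250 bp upstream to 50 bp downstream of a start, 8 of 31 rps- genes held any of the words (25.8%), and so did 22.8% of all protein-coding genes. By call, 4 of the 8 thresholded rps- genes (50%) and 4 of the 23 others (17.4%) held a word in the promoter. That split uses the same calls and words, so it cannot be read as enrichment either. Within 50 bp of the summit, 5 of the 8 thresholded rps- genes had none of the words.

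The windows of rps-14 and rps-24 show the word at summits that did not pass the threshold, with the matches in capitals. They are chrIII:7179798-7179898 on the minus strand and chrIV:385558-385658 on the plus strand.
rps-14: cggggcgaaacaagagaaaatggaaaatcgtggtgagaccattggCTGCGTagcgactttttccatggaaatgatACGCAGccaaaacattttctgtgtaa
rps-24: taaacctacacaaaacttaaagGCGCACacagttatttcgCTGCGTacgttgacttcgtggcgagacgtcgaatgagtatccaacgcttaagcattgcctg
In rps-14 the word is present in both orientations, and in rps-24 it stands beside GCGCAC. These 2 summits ranked 11672 and 9866 among the pooled candidates, so the word occurs at rps- summits with ordinary signal as well.

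Many rps- genes have a splice acceptor sequence just upstream of an annotated start. The hexamer TTTCAG, in capitals below, ended directly upstream of an annotated start at 8 of 8 thresholded rps- genes, as in rps-1 (chrIII:4475898-4475917, plus strand), rps-12 (chrIII:5679278-5679297, plus strand), rps-18 (chrIV:14825659-14825678, plus strand) and rps-28 (chrIV:1659671-1659690, plus strand).
rps-1: ttatgtattcctatTTTCAG
rps-12: tcgaaatttctaatTTTCAG
rps-18: ctaaattttttattTTTCAG
rps-28: ataatttcaatttcTTTCAG
The same hexamer preceded a start at 10 of the 23 other rps- genes, at 58.1% of all 31, at 54.0% of the 50 rpl- and rla- genes of the large subunit, at 34.5% of the 29 mrps- genes of the mitochondrial small subunit and at 16.8% of all protein-coding genes. The shorter AG preceded at least 1 annotated start at 31 of 31 rps- genes, at 88.0% of rpl- and rla- genes, at 79.3% of mrps- genes and at 36.4% of all genes. The AG was counted after the hexamer had been seen. Genes with several annotated starts need only 1 such start to count, and 24 of 31 rps- genes (77.4%) and 72.6% of all genes have a single start. How far upstream transcription begins was not measured here.

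**Figure D1:**
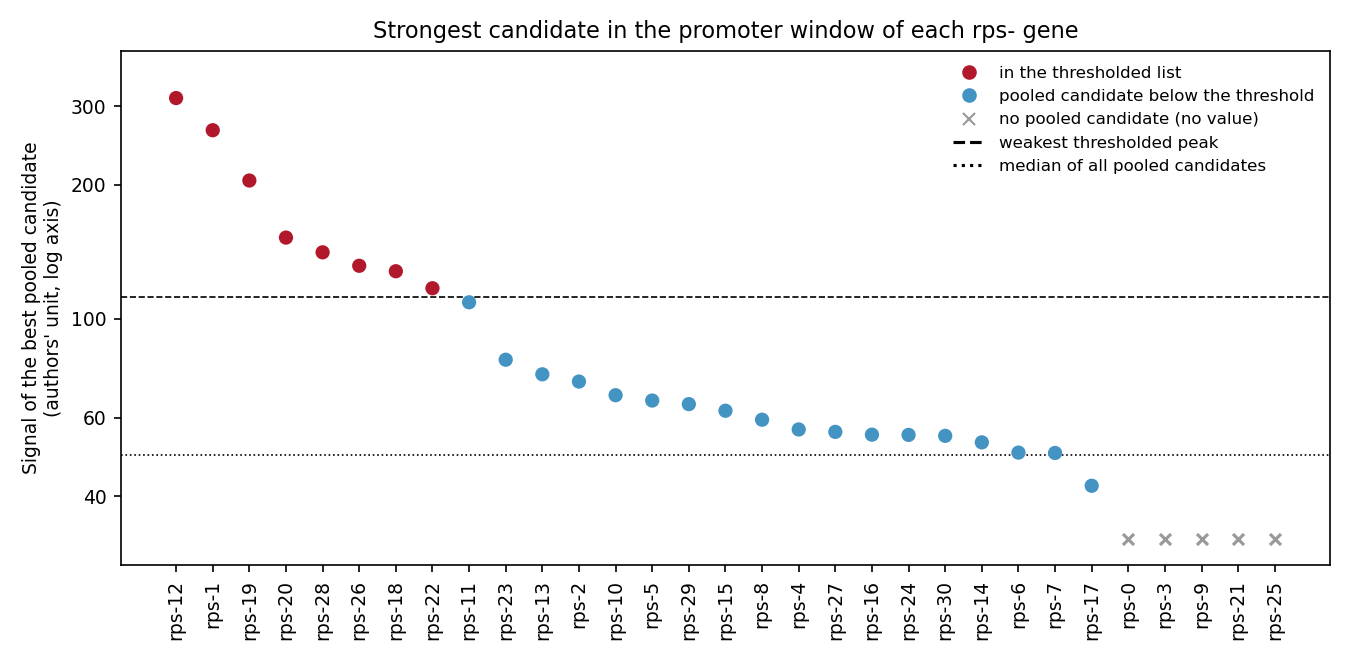
Signal of the strongest pooled candidate in the promoter window of each of the 31 rps- genes, in the authors' unit on a log axis, ordered from high to low. The 8 thresholded genes lie above the weakest thresholded peak (112, dashed), rps-11 lies just under it at 109, and 5 genes marked by crosses have no pooled candidate. The dotted line is the median of all pooled candidates (49.6).

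The strongest rps- peak was at rps-12, which encodes a protein of the beak of the head and is known in Drosophila for its part in cell competition. That peak lies on chromosome III at 5678951 to 5679320 and had a pooled signal of 313, rank 30 of 30000, with 136 in replicate 1 and 170 in replicate 2. Its summit lay 162 bp upstream of rps-12 and 131 bp upstream of ska-3, a gene of the spindle and kinetochore associated complex that starts on the other strand. It was the strongest rps- gene in replicate 2 and close to the strongest in replicate 1.

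rps-19, whose human counterpart is mutated in Diamond-Blackfan anaemia, had a peak on chromosome I at 9625879 to 9626248 with a pooled signal of 205 and rank 78. The rps-19 replicates held 92.3 (replicate 1) and 113 (replicate 2), and its summit lay 268 bp upstream of rps-19 and 177 bp upstream of hsr-9, which encodes a protein related to the DNA damage factor 53BP1. rps-20, a neighbour of RPS-3 and RPS-29 in the head, had a peak on chromosome I at 14469189 to 14469558 with a pooled signal of 152 and rank 135. The rps-20 signal was 58.8 in replicate 1 and 95.9 in replicate 2, and the summit lay 271 bp upstream of it and 126 bp upstream of ekl-4, related to the DNA methyltransferase associated protein DMAP1.

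rps-18, which contacts the large subunit, had a peak on chromosome IV at 14824859 to 14825228 with a pooled signal of 128 and rank 193, and 57.9 in replicate 1 and 65.6 in replicate 2. This was the most distant of the 8 summits, 635 bp upstream of rps-18, and it lay past the start of the opposite-strand gene sec-61.A, 220 bp downstream of it and in its annotated UTR. sec-61.A encodes the channel subunit of the translocon that passes new proteins into the endoplasmic reticulum. Without the part of the window beyond 500 bp upstream, rps-18 had no thresholded summit and the count was 7 of 31.

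rps-1, whose protein lies near the exit of the messenger RNA channel, had a peak on chromosome III at 4475467 to 4475836 with a pooled signal of 265 and rank 45, and 139 in replicate 1 and 123 in replicate 2. Its summit was 266 bp upstream of rps-1 and 502 bp upstream of ifet-1, which encodes a translational repressor related to the eIF4E transporter, and it fell within the annotated non-coding RNA genes F56F3.10 and F56F3.11. rps-1 was the second strongest rps- gene and the strongest in replicate 1.

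rps-28, which encodes a protein near the same exit, had a peak on chromosome IV at 1659095 to 1659464 with a pooled signal of 141 and rank 161. Its replicate signals were nearly equal, 69.9 in replicate 1 and 69.3 in replicate 2. The summit lay 411 bp upstream of rps-28 and 830 bp upstream of Y41D4B.4, which is on the same strand. A weaker pooled candidate of 83.2, rank 1003, lay 934 bp upstream of rps-28. rps-28 was the only thresholded rps- gene without an opposite-strand gene that starts within 1000 bp upstream.

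rps-26, whose protein also contacts messenger RNA at the exit, had a peak on chromosome I at 14759340 to 14759709 with a pooled signal of 132 and rank 182. Replicate 1 gave 52.2 and replicate 2 gave 85.7 at rps-26. The summit was 405 bp upstream of rps-26 and only 52 bp upstream of tmem-107, whose protein belongs to the ciliary transition zone, and the snoRNA gene F39B2.14 lay 113 bp from it. Of the 8 summits it had the smallest distance to the neighbour's start.

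rps-22, whose protein belongs to the body of the subunit, had the weakest thresholded rps- peak, on chromosome III at 1950251 to 1950620, with a pooled signal of 117 and rank 244. At rps-22, replicate 1 gave 55.3 and replicate 2 gave 65.3. The summit lay 99 bp upstream of rps-22, the shortest distance among the 8 thresholded rps- genes, and 167 bp upstream of polh-1, which encodes the translesion DNA polymerase eta.

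**Figure D2:**
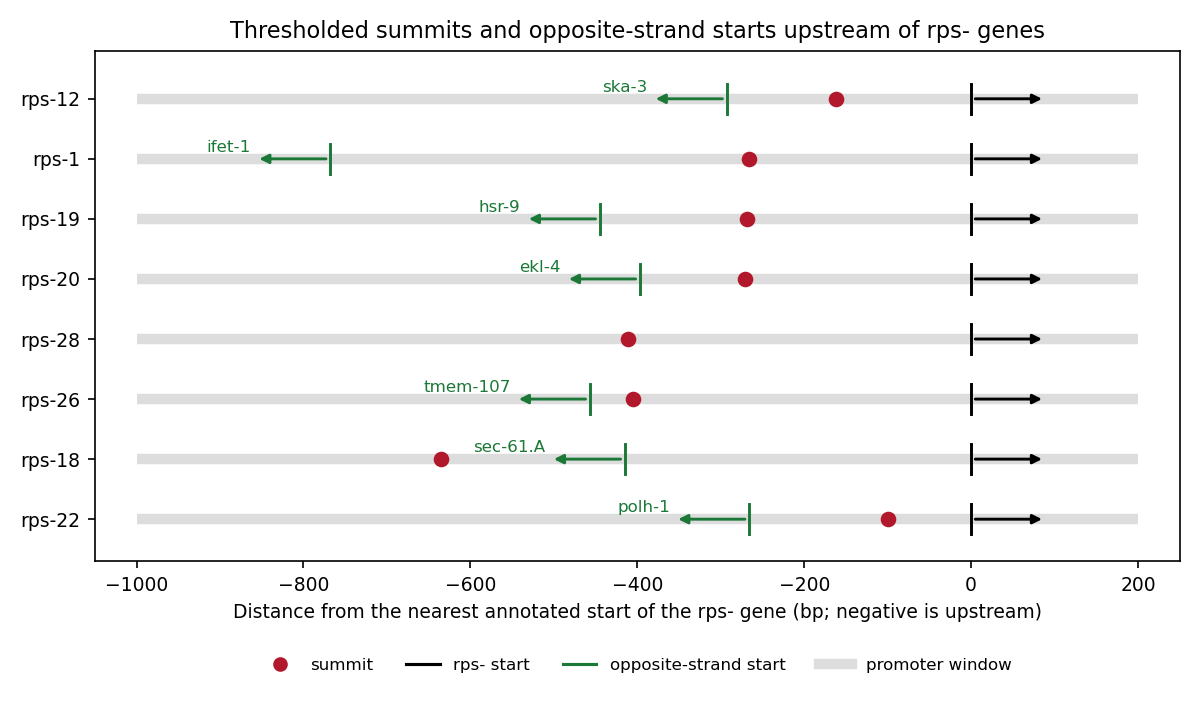
Position of the thresholded summit (red) at the 8 called rps- genes, strongest at the top, as distance in bp from the nearest annotated start of the rps- gene (black arrow), with the start of an opposite-strand gene within 1000 bp upstream (green arrow). At 6 of the 8 the summit lies between both starts, at rps-18 it lies beyond the start of sec-61.A, and rps-28 has no such neighbour.

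Most called rps- genes lay back to back with a neighbour on the other strand. An opposite-strand gene started within 1000 bp upstream at 7 of 8 thresholded rps- genes (87.5%) and at 12 of 23 others (52.2%), while 47.5% of all called genes and 17.9% of all genes without a call had one. Over all 31 rps- genes the share was 61.3%, against 58.0% of rpl- and rla- genes, 44.8% of mrps- genes and 18.3% of all genes. The distance between both starts had a median of 415 bp at the thresholded rps- genes, with a range of 266 to 768 bp, and of 577.5 bp at the other 12. At 3 rps- genes the neighbour was itself a ribosomal protein gene: rpl-24.1 at rps-10, rpl-36 at rps-14 and rpl-39 at rps-30. None of these 3 had a thresholded summit, while 25.8% of all rps- genes and 1.38% of all genes had one. With so few genes, the absence of a call does not set them apart. Peaks in shared windows cannot be told apart by gene, so each such value belongs to both neighbours.

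The 8 thresholded summits lay 99 to 635 bp upstream of the rps- start, with a median distance of -269.5 bp, and 0 of them lay downstream. Over all 276 called genes the median was -245.5 bp. Of the 8 summits, 7 were outside annotated protein-coding genes. The 101 bases around them had a median GC content of 50%, from 36.6% at rps-20 to 56.4% at rps-26, against 48.5% over all 267 thresholded summits. At the 18 rps- genes with a weaker pooled candidate the median distance was -264 bp, the range ran from -844 to 180 bp, 11 summits lay between genes and the median GC content was 44.6%. The median distances were thus close, while 3 of the 18 weaker summits lay downstream of a start.

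Below the threshold, 18 rps- genes had a pooled candidate and 5 had none. In all, 26 of 31 rps- genes had a pooled candidate (83.9%, interval 67.4 to 92.9%), against 38.1% of all genes. Any candidate of replicate 1 was found for 26 of 31 (83.9%, against 38.2% of all genes) and any candidate of replicate 2 for 24 of 31 (77.4%, against 38.3%). A pooled candidate within rank 5000 was found for 15 of 31 (48.4%, against 9.41%). The best pooled signal of the 26 had a median of 66.5 and a median rank of 3811.5, against a signal of 52.2 and a rank of 12257 for the 7605 genes with any pooled candidate. In the replicate lists the median best rank of rps- genes was 3922 in replicate 1 and 949 in replicate 2, against 12321 and 12482.5 for all genes with a candidate there.

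rps-11 came closest to the threshold, with a pooled signal of 109 at rank 291, and 52.3 in replicate 1 and 56.1 in replicate 2. Its summit lay 112 bp downstream of the start, in a coding exon of rps-11 itself, unlike any of the 8 thresholded summits. rps-23, whose protein reaches into the decoding centre, had a pooled signal of 81.0 at rank 1160 with 57.8 in replicate 2 and nothing overlapping in replicate 1. The summit of that pooled candidate, 287 bp upstream, was also 247 bp upstream of dpm-3, a subunit of the dolichol-phosphate mannose synthase. Replicate 1 had its rps-23 candidate elsewhere in the window, 99 bp downstream of a start, with 50.3 at rank 1279. A second pooled candidate of 51.1 at rank 13375 had the same summit. rps-13, which forms a bridge to the large subunit, had a pooled signal of 75.1 at rank 1836 and its summit 90 bp upstream. The rps-13 replicates held 26.2 and 45.3, the first from a peak whose summit lay 193 bp away.

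The remaining candidates within rank 5000 had signals close to each other. rps-2, a protein of the messenger RNA entry channel, had 72.3 at rank 2296, with 28.5 in replicate 1 and 39.7 in replicate 2, and its summit lay in a coding exon of C49H3.12. rps-10, a ubiquitination target on collided ribosomes in mammals, had 67.4 at rank 3523, with 45.3 and 28.3 in the replicates, and its summit lay in a coding exon of rpl-24.1. rps-5, a protein of the head near the exit site, had 65.6 at rank 4100, with 44.4 in replicate 1 and 21.0 in replicate 2. rps-29, a zinc-binding protein of the head, had 64.4 at rank 4530, with 38.3 in replicate 1 and nothing overlapping in replicate 2. All 4 lay below rps-11 in replicate 1, and so did the 3 with a candidate in replicate 2 there.

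The other 11 rps- genes with a pooled candidate ranked between 5431 and 25153, with signals from 62.2 at rps-15 to 42.2 at rps-17. In order of signal they were rps-15, rps-8, rps-4, rps-27, rps-16, rps-24, rps-30, rps-14, rps-6, rps-7 and rps-17. rps-15, whose protein has a tail at the decoding site, had a candidate in replicate 2 and not in replicate 1: the replicate 2 candidate had a signal of 55.8 at rank 316. rps-8 had 2 pooled candidates of nearly the same signal, 59.4 at 180 bp downstream and 59.3 at 62 bp upstream of a start. Most of these values sat close to the median of all pooled candidates.

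No pooled candidate lay in the windows of rps-0, rps-3, rps-9, rps-21 and rps-25. rps-3, which encodes a protein at the messenger RNA entry site, and rps-21 had no candidate of any list in the window. rps-9 had 46.9 at rank 2026 in replicate 1 and 25.9 at rank 14101 in replicate 2. rps-0 had a candidate in replicate 2 alone, with 21.2 at rank 26078, and rps-25 in replicate 1 alone, with 27.8 at rank 21698. A list that stops at 30000 regions cannot show that such promoters have no signal. A candidate in all 3 candidate lists was found for 20 of 31 rps- genes (64.5%, interval 46.9 to 78.9%, against 19.9% of all genes), and 8 of 31 had 2 pooled candidates (25.8%, against 8.38% of all genes with 2 or more). Inside the transcribed part of the gene but beyond the window, 14 of 31 rps- genes had a pooled candidate (45.2%, interval 29.2 to 62.2%, against 47.4% of all genes). The shares are near each other, while the median gene length is 756 bp for rps- genes and 2027 bp for all genes.

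**Figure D3:**
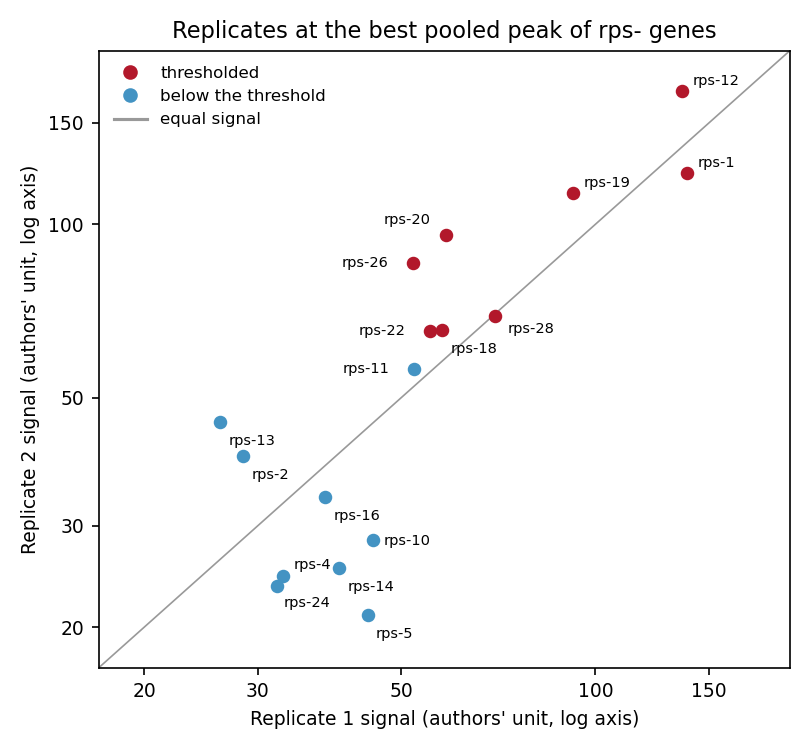
Signal of the strongest overlapping candidates of replicate 1 (x axis) and replicate 2 (y axis) at the best pooled peak of the 17 rps- genes with both, in the authors' unit on log axes, with the line of equal signal. The thresholded genes lie at the upper right, 6 of 8 above the line. The weaker genes spread to both sides, from rps-13 above the line to rps-5 below it.

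At the best pooled peak, 17 rps- genes had an overlapping candidate in both replicates, 4 in replicate 1 alone, 4 in replicate 2 alone and rps-7 in neither. Over the 17 genes Spearman's rho between the replicates was 0.81 and Pearson's r, computed on log2 values, was 0.82, as a description of peaks that share their libraries. Peaks of the thresholded list were selected on pooled signal, so their replicate values are tied to that sum. Among the 8 thresholded genes rho was 0.79, and among the 9 weaker ones it was -0.05. Over the 8, the log2 ratio of replicate 1 over replicate 2 was -0.27 in the median with an SD of 0.31, and 6 of them were higher in replicate 2. Over all 272 called genes with both replicates the median was -0.03 and the SD was 0.50. The summits of the 8 in single replicates lay at most 74 bp from the pooled summit. Those of the 9 weaker genes lay up to 308 bp from it, with a median of 19 bp. Where several candidates overlapped the pooled peak, the strongest was taken and not the nearest. At rps-14, replicate 1 also had a candidate of 29.0 with the same summit as the pooled peak. At rps-16, replicate 2 also had a candidate of 31.3 nearer to the pooled summit than the one used. The candidates compared at the weaker genes thus need not mark the same site, and the shifts, rho and ratios depend in part on this choice.

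Among the 17 rps- genes with a candidate in both replicates at the best pooled peak, those whose replicates differed most were rps-5, rps-13 and rps-26, with log2 ratios of replicate 1 to replicate 2 of 1.08, -0.79 and -0.72. The closest were rps-28 at 0.01, rps-11 at -0.10 and rps-1 at 0.17. The difference between replicates bears on the count of called genes. Among the 267 strongest candidates of replicate 2 alone, 8 of 31 rps- genes were represented (25.8%, against 1.37% of all genes), and these were the same 8. Among the 267 strongest of replicate 1 alone, 4 of 31 were represented (12.9%, interval 5.13 to 28.9%, against 1.19%), namely rps-1, rps-12, rps-19 and rps-28. Thus rps-18, rps-20, rps-22 and rps-26 reached the top 267 in replicate 2 and not in replicate 1, where they ranked between 471 and 1008.

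The thresholded rps- genes were spread over 3 chromosomes. Chromosome III held 9 members of which 3 were called, chromosome I 8 members with 3 called, and chromosome IV 10 members with 2 called. The single member on chromosome II and the 3 on chromosome V had no thresholded summit, and the X chromosome held no rps- gene. Among all genes the called share was highest on chromosome III (2.92%), followed by chromosome I (2.08%) and chromosome IV (1.65%). It was 1.25% on chromosome II and 0.721% on chromosome V. With so few members there, the absence of a call does not set these 2 chromosomes apart.

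**Figure D4:**
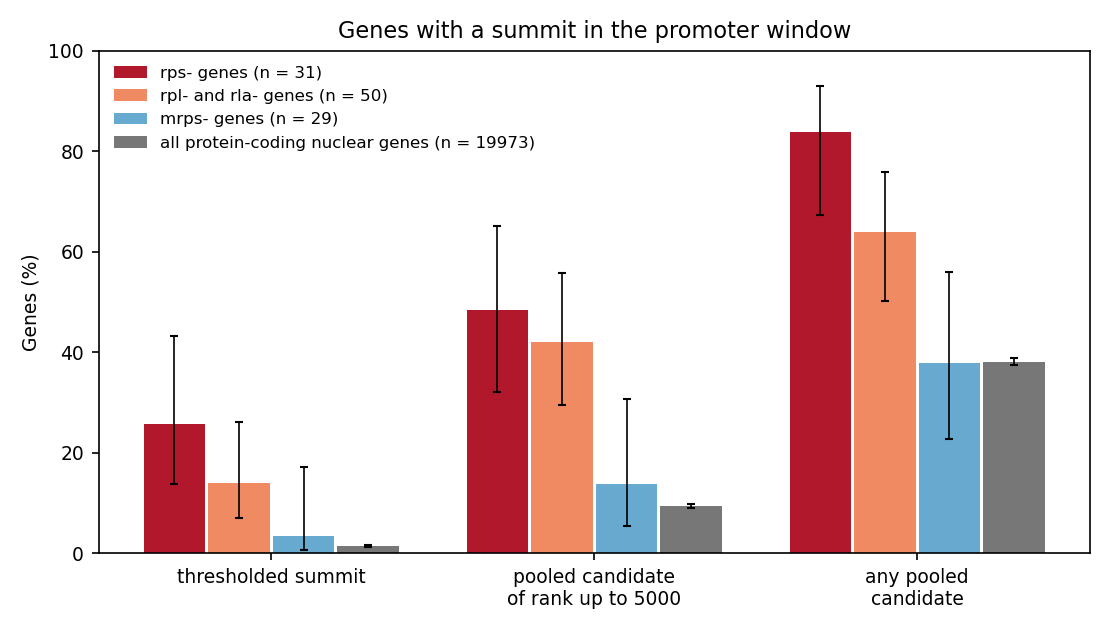
Share of genes with a summit in the promoter window under 3 rules, for rps- genes, rpl- and rla- genes, mrps- genes and all protein-coding nuclear genes, with 95% Wilson intervals that cover counting error only. For thresholded summits the bars stand at 25.8%, 14.0%, 3.45% and 1.38%.

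The rps- genes were set beside the other ribosomal protein genes under the same window, whose median total length was 1201 bp in every group. Of the 50 rpl- and rla- genes of the large subunit, 7 had a thresholded summit (14.0%, interval 6.95 to 26.2%) and 32 a pooled candidate (64.0%). Of the 29 mrps- genes of the mitochondrial small subunit, 1 had a thresholded summit (3.45%, interval 0.611 to 17.2%) and 11 a pooled candidate (37.9%). The intervals of rps- and rpl-/rla- genes overlap, and a difference in share between both subunits was not tested. The thresholded rps- genes were weaker in signal, with a median of 147 and a maximum of 313, against a median of 315 and a maximum of 707 at the 7 large subunit genes and a median of 158 over all 276 called genes.

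Genes that act with the small subunit were also looked up, and none of the 6 had a thresholded summit, while 1.38% of all genes had one. With a share that low, the absence of a call among 6 genes does not set them apart from other genes. ubl-1, which encodes a ubiquitin-like protein fused to a small subunit protein, had a pooled candidate of 63.0 at rank 5108, 175 bp upstream. rsks-1, the kinase that phosphorylates RPS-6, had one of 70.8 at rank 2638, 48 bp downstream of a start. riok-3, a member of the kinase family that acts in maturation of the small subunit, had one of 68.8 at rank 3126, 928 bp upstream. rack-1, a scaffold protein bound to the head of the subunit, had one of 42.3 at rank 24992. riok-1 had a candidate in replicate 2 alone (21.4 at rank 25471) and riok-2 had none. These values lay in the range of the weaker rps- genes.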

How the data were processed

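Per the labels, ChIP-seq was done on sonicated chromatin of 2 biological replicates. The authors deposited, for the ce10 and ce11 builds, 30000 candidate regions per replicate and for the replicates pooled, and 1 list thresholded by irreproducible discovery rate, per the descriptions deposited beside the lists. The aligner, the caller, the threshold and the scale of the signal were not given in the sources used here. The signal and the −log10 q of each peak, and the summit offset, are the authors' deposited values. Depth is unknown, and Wilson intervals at 95% cover counting error only.

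Summits of the ce11 lists were assigned to genes of Ensembl release 115 with Python 3.11.15, pandas 2.3.3, numpy 2.4.6 and scipy 1.17.1, and the assignment was tested on simulated data. Sequences were read from the RefSeq copy of WBcel235, which is the same build as ce11. The replicates shared the identical summit base at 179 of 30000 candidates and were counted as 2 samples. With a single group no test between groups was made. The rps- genes, lists, words and alternatives were chosen with earlier results of these data known. Every rps- gene is named, with values in full for thresholded genes and within pooled rank 5000, besides genes sharing a thresholded summit, 6 related genes, and the 3 members with the most different and the closest replicates. The alternatives changed the window, the transcript start, the assignment of shared summits, the threshold, the replicate, the distance around summits and the build.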

Additional observations from a re-analysis of the deposited data

How the results depend on the processing

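Of 48 alternative values, 29 stayed within 1.5 times (counts) or within the SD between both replicates (other values), and 19 moved. The count of 8 thresholded rps- genes stayed between 7 and 8 for narrower and wider windows, the longest transcript and any overlap. It was 3 with summits given to the nearest start alone and 3 when only the stronger 133 peaks were kept (rps-1, rps-12 and rps-19), and ran from 4 to 8 without either replicate. The share of all genes was 1.06% for the window of 500 bp upstream to 100 bp downstream, 1.70% for 2000 bp upstream to 500 bp downstream, 0.951% for the nearest start, 0.746% with the stronger 133 peaks, and 1.19% to 1.37% without either replicate. Pooled candidates were found for 18 to 29 rps- genes under the changed windows and assignments. The share of all genes with a pooled candidate was counted for the main window only (38.1%), so that range has no share beside it. Single replicates gave candidates for 26 rps- genes (replicate 1, against 38.2% of all genes) and 24 (replicate 2, against 38.3%). The median signal of the best candidates was 64.4 (narrow window), 76.4 (wide window), 57.9 (nearest start) and 74.9 (any overlap), and 42.2 to 43.7 in single replicates, whose scale differs. The median rank was 1644 (wide window), 1874 (any overlap) and 7802.5 (nearest start), and 949 to 3922 in single replicates. The median distance of -268 bp was -218 bp with the nearest start. ACGCAG lay near 6 rps- summits, and 3 to 6 without either replicate. The ce10 list held 271 peaks, with the 8 rps- peaks among them and rps-11 outside. No paired analysis was possible because there is a single group. The nearest-start and stricter settings lower counts by construction, and other causes were not tested. Unknown depth limits single signals.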
